A study of Mus musculus with 10 samples.

Results

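The miR-148 and miR-152 family in the outer coats of the mouse eye is described here through its 3 members with a shared seed, mmu-miR-148a-3p, mmu-miR-148b-3p and mmu-miR-152-3p (written without the species prefix from here on). They were chosen by name as the 3p arms of this seed family, and are 3 of the 1340 mature miRNAs in the deposited table. The RPE/choroid/sclera, that is the pigment epithelium behind the retina with the vessel layer and the fibrous wall of the eye, was taken at postnatal day 34 from C57BL/6J mice of wild type genotype for small RNA sequencing. The 10 libraries came from 5 right and 5 left eyes that share the numbers 61, 64, 65, 66 and 68. Every animal wore a goggle with a -20 dioptre lens over 1 eye for 10 days from postnatal day 24, which sets off myopic eye growth in young animals, and the other eye had no lens. The labels name the side of each eye but not the side of the lens, so right eyes were compared with left eyes, and treated and untreated eyes cannot be told apart.

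miRNAs are short RNAs that pair with messenger RNAs, chiefly through the seed near their 5′ end, and lower the output of those messengers. The miR-148 and miR-152 members carry one seed and can act on the same sites. In human cells they are known to act on the DNA methyltransferase DNMT1 and, in melanoma, on MITF, the transcription factor that also sets pigment epithelium identity. In liver, miR-148a acts on the LDL receptor and the cholesterol exporter ABCA1.

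The mature sequences are shown because the shared seed defines the family and the few bases outside it tell the members apart. They are from RefSeq (GRCm38.p6), 5′ to 3′, with the seed at bases 2 to 8 in capitals.
miR-148a-3p: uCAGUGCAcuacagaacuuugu
miR-148b-3p: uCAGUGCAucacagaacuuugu
miR-152-3p: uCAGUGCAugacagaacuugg
Counted from the 5′ end, miR-148b-3p differs from miR-148a-3p by C9U and U10C, and is otherwise identical over 22 bases. Against miR-148a-3p, miR-152-3p has C9U, U10G and U20G and ends 1 base earlier, at 21 bases. Against miR-148b-3p it has C10G and U20G. No other mature miRNA among the 1679 in the RefSeq table has CAGUGCA at bases 2 to 8.

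The 3 genes lie apart in the genome. Positions are those of RefSeq on GRCm38, and for the 3 members the deposited table gives the same start and a stop that lies 1 base further. The miR-148a-3p bases are at chromosome 6, 51269829 to 51269850, on the minus strand, and the hairpin overlaps no other gene of the GENCODE annotation. Its nearest protein-coding gene is Nfe2l3, 163 kb away. The miR-148b-3p bases are at chromosome 15, 103285185 to 103285206, on the plus strand, in intron 1 of Copz1. The miR-152-3p bases are at chromosome 11, 96850439 to 96850459, on the plus strand, in intron 1 of Copz2. Copz1 and Copz2 encode paralogous zeta subunits of the coatomer, the coat of vesicles that travel between Golgi and endoplasmic reticulum.

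The hairpins are shown because both of their arms were measured, with the 3p arm in capitals.
Mir148a: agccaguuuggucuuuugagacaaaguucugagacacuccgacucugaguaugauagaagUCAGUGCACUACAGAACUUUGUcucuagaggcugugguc
Mir148b: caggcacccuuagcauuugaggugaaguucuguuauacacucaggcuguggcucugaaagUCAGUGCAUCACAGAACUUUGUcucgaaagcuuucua
Mir152: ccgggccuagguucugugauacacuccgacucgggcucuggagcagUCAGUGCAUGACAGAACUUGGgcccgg

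Signals are the authors' normalised values, with k for 1000 units. They are not reads and the depth of the libraries is unknown. Such values move in steps, so that miRNAs at one rank in different libraries can have the same value, and 2 equal signals need not be 2 equal amounts. The level of a miRNA in whole tissue can change with the share of cells that make it or with its amount per cell, and these cannot be told apart.

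The most abundant member, miR-148a-3p, had 60.2, 48.3, 60.2, 65.3 and 84.5 k in the right eyes of numbers 61, 64, 65, 66 and 68, against 50.7, 46.1, 60.2, 65.3 and 84.5 k in the left eyes. Both eyes of number 68 were the highest and both eyes of number 64 the lowest, and the sides overlapped. In 3 numbers the eyes had the same value, and the right eye was higher in the other 2. Over the 10 libraries miR-148a-3p averaged 62.5 ± 13.4 k (SD, n = 10) and held ranks 25 to 35.

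The member of the Copz1 intron, miR-148b-3p, had 40.9, 37.0, 43.0, 43.0 and 48.3 k in right eyes, against 37.0, 37.9, 40.9, 46.1 and 50.7 k in left eyes, with the numbers in the same order. Number 68 was again the highest in both eyes, and the sides overlapped. Its mean was 42.5 ± 4.73 k (SD, n = 10), at ranks 33 to 41. The highest signal was 1.37 times the lowest, where this ratio was 1.83 for miR-148a-3p.

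The member of the Copz2 intron, miR-152-3p, had 6.77, 5.09, 6.30, 6.60 and 4.70 k in right eyes, against 5.90, 6.44, 5.09, 6.08 and 6.08 k in left eyes. Here right eye 68 was the lowest library, not among the highest, and right eye 61 was the highest. The mean was 5.91 ± 0.707 k (SD, n = 10), at ranks 84 to 96.

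miR-148a-3p was above miR-148b-3p, and miR-148b-3p above miR-152-3p, in 10 of 10 libraries. Signals of different miRNAs are not corrected for how well each sequence is captured, so this order describes signal. Among all miRNAs by mean, miR-148a-3p stood 30th, next to miR-30c-5p at 63.2 ± 16.7 k and let-7d-5p at 57.6 ± 12.4 k. Just above and below these stood the endothelial miR-126a-3p at 65.3 ± 9.68 k and the muscle miRNA miR-133a-3p at 52.7 ± 20.7 k. miR-148b-3p stood 37th, below miR-211-5p of pigment cells at 44.2 ± 9.68 k and miR-101a-3p at 44.2 ± 10.6 k. It stood above miR-181c-5p at 42.2 ± 4.71 k and the erythroid miR-486b-5p at 41.7 ± 10.5 k. miR-152-3p stood 90th, between let-7d-3p at 5.97 ± 0.810 k, miR-423-3p at 5.95 ± 0.672 k, miR-1839-5p at 5.88 ± 0.481 k and let-7e-5p at 5.34 ± 2.01 k (all SD, n = 10). None of these neighbours lay further from its member than their SDs.

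**Figure D1:**
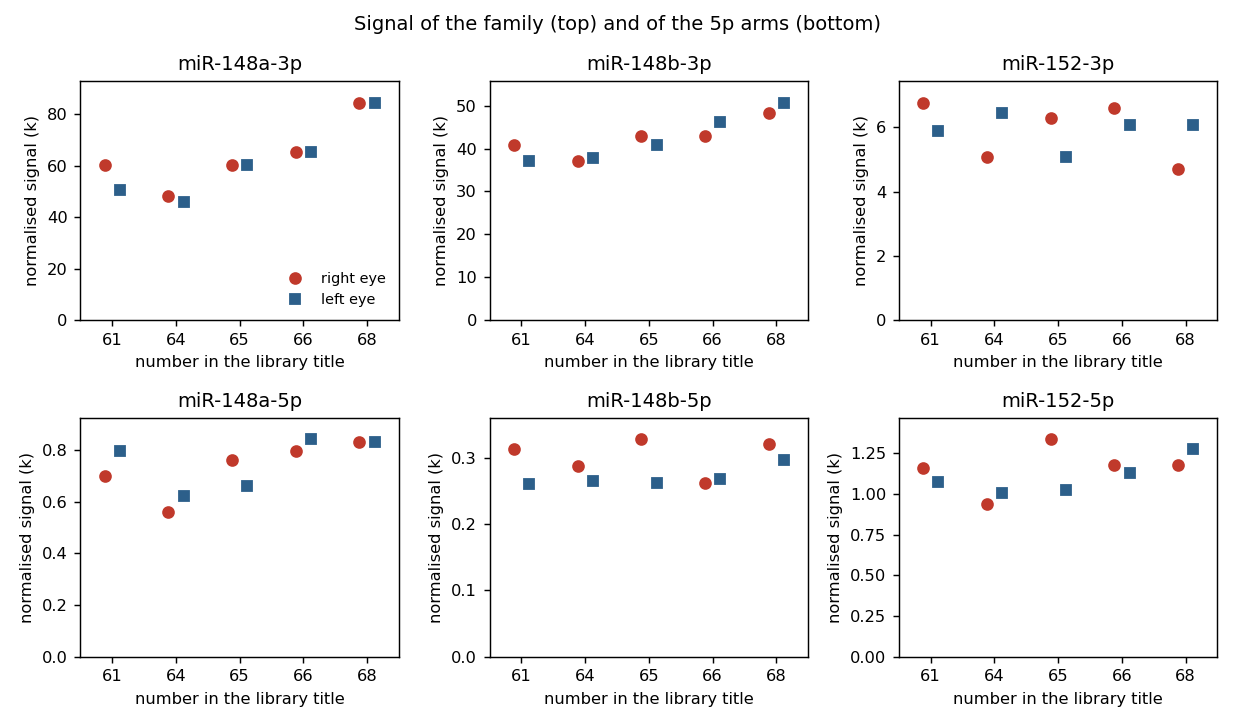
Normalised signal in k (units of 1000) on the vertical axes, by number in the library title, for the 3 family members in the top row and the 5p arms of the same hairpins in the bottom row. Circles are right eyes and squares are left eyes. For miR-148a-3p both eyes of number 68 stand at 84.5 k, while for miR-152-3p right eye 68 is the lowest library at 4.70 k.

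The comparison of right with left eyes asked whether any member differed between the sides, and none passed the test. miR-148a-3p averaged 63.7 ± 13.2 k in right eyes and 61.4 ± 15.0 k in left eyes (SD, n = 5 each). In limma across 588 miRNAs, with the number as a block, its log2 fold change was 0.06 ± 0.06 (SE, adjusted p = 0.967), and the 95% interval ran from 0.942-fold to 1.16-fold. For miR-148b-3p the means were 42.4 ± 4.10 k in right eyes and 42.5 ± 5.79 k in left eyes (log2 fold change 0.002 ± 0.06, limma adjusted p = 0.989), with an interval from 0.903-fold to 1.11-fold. miR-152-3p averaged 5.89 ± 0.934 k in right eyes and 5.92 ± 0.502 k in left eyes (log2 fold change -0.02 ± 0.12, limma adjusted p = 0.985). With the block its interval was the widest of the 3, 0.807-fold to 1.21-fold. Without the block that of miR-148a-3p was the widest, from -0.33 to 0.46 on the log2 scale, so these widths depend on the pairing by number.

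None of the 3 members was called, where 0% of all 588 miRNAs passed at an adjusted p of 0.05 in limma and 2.21% had an unadjusted p under 0.05, none of them a member. The values of the sides overlapped for all 3 members, while they did not for 0.17% of the 588. In 3 of 5 numbers the eyes had one value of miR-148a-3p, and these pairs enter its interval as differences of 0. If the lens was worn on the right by some animals and on the left by others, this contrast would not show its effect.

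**Figure D2:**
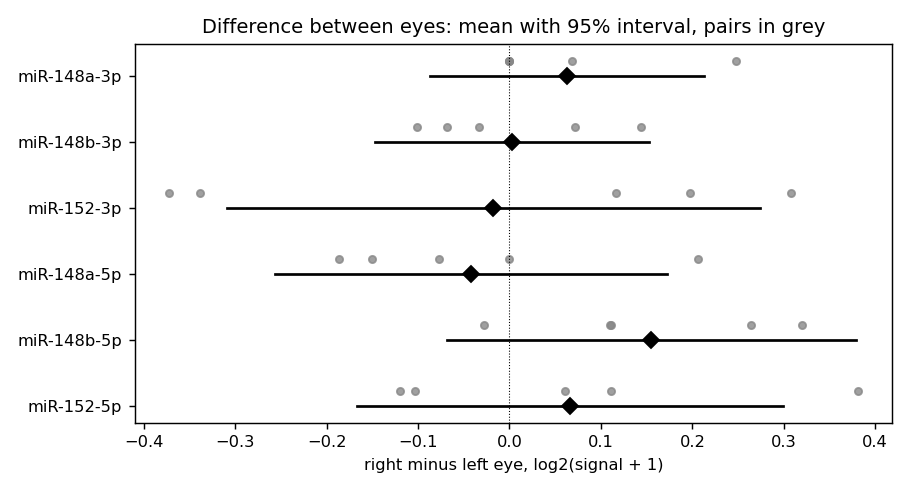
Right minus left eye difference in log2(signal + 1) on the horizontal axis for the 3 members and their 5p arms. Black diamonds and lines are the limma estimate and its 95% interval, grey points are the 5 numbers. Every interval includes 0, and miR-148a-3p has 3 grey points at 0.

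The family sum asked whether the total of one seed differed between sides. It was 108, 90.4, 109, 115 and 138 k in the right eyes of numbers 61, 64, 65, 66 and 68, against 93.6, 90.4, 106, 117 and 141 k in the left eyes. These sums are between 0.761% and 1.19% of the library's signal, and the lowest and highest numbers, 64 and 68, were the same on both sides. The right eye was higher in 3 of 5 numbers, by 2.24 ± 7.23 k on average (SD, n = 5, exact sign-flip permutation p = 0.6875). With 5 pairs the smallest two-sided p this test allows is 0.0625. It lies above the threshold of 0.05, so no sum, share or ratio could pass, and the values are given as description.

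The share of each member in the sum was compared between sides by the same test, which could not reach the threshold. miR-148a-3p made up 56.5 ± 3.04% of the family sum in right eyes and 55.4 ± 3.25% in left eyes (SD, n = 5 each), and was higher in 4 of 5 right eyes. miR-148b-3p made up 38.1 ± 2.16% in right eyes and 39.0 ± 2.17% in left eyes. miR-152-3p made up 5.37 ± 1.12% in right eyes and 5.54 ± 1.15% in left eyes, with its lowest share, 3.42%, in right eye 68. The differences gave exact sign-flip permutation p = 0.3125, 0.1875 and 0.8125 in this order, or 0.469, 0.469 and 0.8125 adjusted over the 3 shares.

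As ratios of signal, miR-148a-3p to miR-148b-3p was 1.47, 1.31, 1.40, 1.52 and 1.75 in right eyes, against 1.37, 1.22, 1.47, 1.42 and 1.67 in left eyes. The log2 ratio was 0.06 ± 0.08 higher in right eyes (SD, n = 5, higher in 4 of 5, exact sign-flip permutation p = 0.1875, adjusted p = 0.5625 over the 3 pairs of members). Number 68 had the highest ratio and number 64 the lowest on each side. The ratio of miR-148a-3p to miR-152-3p spanned more, 8.89 to 18.0 in right eyes and 7.16 to 13.9 in left eyes, and that of miR-148b-3p to miR-152-3p ran from 6.04 to 10.3 in right eyes and 5.88 to 8.33 in left eyes. Between sides both had an adjusted exact sign-flip permutation p = 0.75, in a test that could not reach the threshold.

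The 5p arms of the 3 hairpins, which are cut from the same precursor and did not enter the choice of members, were far less abundant. miR-148a-5p had 701, 560.2, 761, 797 and 831 units of signal in right eyes, against 797, 622, 660, 841 and 831 units in left eyes. As for the 3p arm, number 64 was low in both eyes. miR-148b-5p had 313, 287, 328, 262 and 321 units in right eyes, against 261, 266, 262, 268 and 297 units in left eyes, and was higher in 4 of 5 right eyes.

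miR-152-5p had 1159, 939, 1335, 1177 and 1177 units in right eyes, against 1073, 1009, 1025, 1128 and 1279 units in left eyes. Its level was above both other 5p arms in 10 of 10 libraries, the reverse of its place among the 3p arms. The 3p arm had 79.1 to 102 times the signal of the 5p arm in right eyes and 63.5 to 102 times in left eyes for miR-148a. For miR-148b this ratio was 129 to 164 in right eyes and 142 to 172 in left eyes, and for miR-152 only 4.00 to 5.84 in right eyes and 4.76 to 6.38 in left eyes.

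None of the 5p arms passed between sides in limma. The log2 fold changes were -0.04 for miR-148a-5p, 0.16 for miR-148b-5p and 0.07 for miR-152-5p, each with adjusted p = 0.967. The largest, miR-148b-5p, averaged 302 ± 27.1 units in right eyes and 271 ± 15.1 units in left eyes (SD, n = 5 each), with an interval from 0.953-fold to 1.30-fold. The log2 ratio of 5p to 3p arm was compared across 158 hairpins, of which 0% passed in limma and 1.9% had an unadjusted p under 0.05. The differences in log2 ratio were -0.11 for miR-148a, 0.15 for miR-148b and 0.08 for miR-152 (limma adjusted p = 0.945, 0.934 and 0.945).

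The numbers lay further apart than the 2 eyes of any number for miR-148a-3p and miR-148b-3p, and not for miR-152-3p. For miR-148a-3p the mean of both eyes was 55.4, 47.2, 60.2, 65.3 and 84.5 k in numbers 61, 64, 65, 66 and 68. The span of these means was 37.3 k, where right and left eye of a number differed by at most 9.49 k, in number 61. For miR-148b-3p the means were 38.9, 37.4, 41.9, 44.5 and 49.5 k, a span of 12.1 k where the 2 eyes differed by at most 3.88 k. The 2 miRNAs put the 5 numbers in the same order. For miR-152-3p the means lay between 5.39 and 6.34 k, a span of 0.948 k, and the gap between the eyes of number 68 alone was 1.38 k.

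On the log2 scale the span was 3.40 times the largest gap for miR-148a-3p, 2.80 times for miR-148b-3p and 0.657 times for miR-152-3p. Among the 5p arms it was 2.39 times for miR-148a-5p, 0.691 times for miR-148b-5p and 0.875 times for miR-152-5p. No test of the difference between numbers was made, and the sources used here do not say what the animals of different numbers shared in litter, day or sequencing.

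Likeness between members was described by Pearson r of log2(signal + 1) over the 10 libraries, after the mean of each side was taken off. The libraries are 5 pairs of eyes and share a normalisation, so no p is given. miR-148a-3p and miR-148b-3p moved together, with r = 0.96, and of the 586 miRNAs compared none was more like miR-148a-3p. Without number 68 their r was 0.92, and with any other number left out it was between 0.95 and 0.98. The place of miR-148b-3p in likeness to miR-148a-3p fell to 2 without number 65 and without number 68. In likeness to miR-148b-3p, miR-148a-3p held place 3. miR-152-3p did not share this pattern. Its r was -0.19 with miR-148a-3p and -0.07 with miR-148b-3p, at places 343 and 307 of 586, and without number 68 these turned to 0.24 and 0.34.

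**Figure D3:**
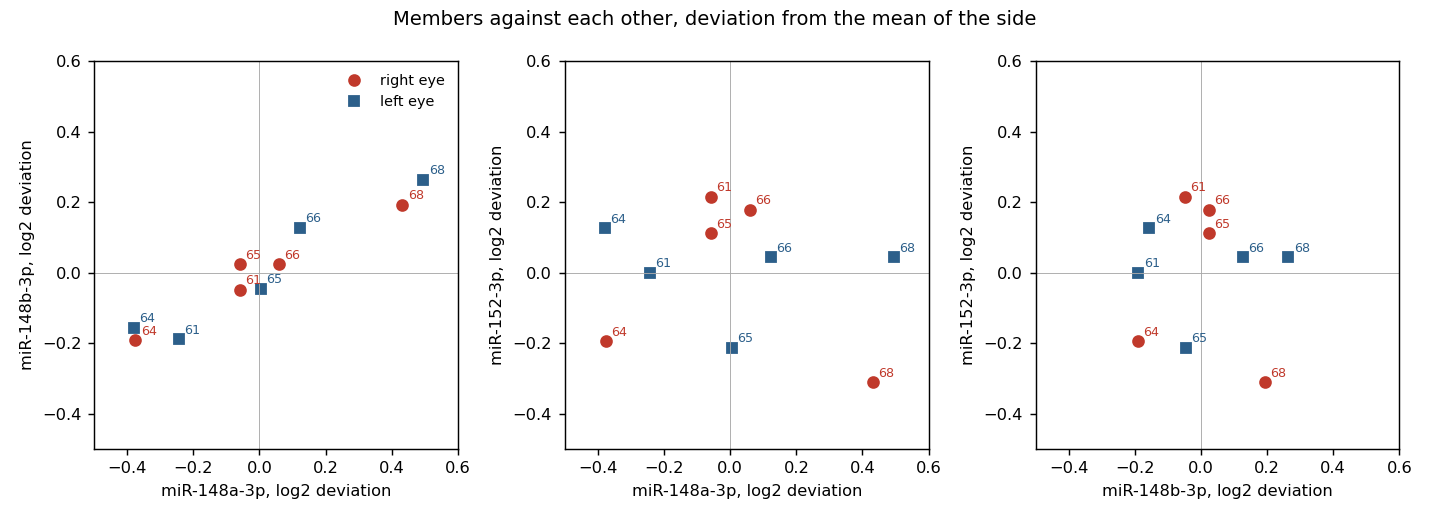
Each pair of members plotted as log2 deviation of every library from the mean of its side, with circles for right eyes, squares for left eyes and the number beside each point. miR-148a-3p and miR-148b-3p fall along one line, r = 0.96. The panels with miR-152-3p show no line, with r = -0.19 and -0.07, and right eye 68 lies at the bottom of both.

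Within each hairpin the arms were less alike than miR-148a-3p and miR-148b-3p were. The r between 3p and 5p arm was 0.75 for miR-148a, 0.52 for miR-148b and 0.39 for miR-152. miR-152-5p was more like miR-148a-3p (r = 0.68) and miR-148b-3p (r = 0.74) than like its own 3p arm. These values changed with the numbers included. With 1 number left out, the r between arms ran from 0.49 (without 64) to 0.86 (without 61) for miR-148a, from 0.13 (without 68) to 0.88 (without 66) for miR-148b and from 0.23 (without 65) to 0.62 (without 68) for miR-152. The r of miR-152-5p ran from 0.44 to 0.89 with miR-148a-3p and from 0.60 to 0.84 with miR-148b-3p. On the means of both eyes, a choice made after seeing the data, the arms of miR-152 had r = -0.18.

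After miR-148b-3p, the miRNAs most like miR-148a-3p were miR-30e-5p (r = 0.95), miR-5106 (0.93), miR-6390 (0.92) and miR-362-3p (0.90). miR-30e-5p, of the abundant miR-30 family, had 28.9, 26.1, 33.6, 32.9 and 37.9 k in right eyes, against 27.2, 27.2, 30.4, 32.9 and 38.7 k in left eyes. Number 68 was the highest in it too. Most like miR-148b-3p were miR-30e-5p (r = 0.97), miR-6390 (0.97), miR-148a-3p, miR-32-5p (0.92) and miR-21a-5p (0.92), the last a miRNA known for its rise in fibrosis. Means of miR-5106, miR-6390, miR-362-3p and miR-32-5p over the 10 libraries were only 23.4, 28.7, 89.2 and 112 units. Without number 68 the r with miR-148a-3p was 0.88 for miR-30e-5p and 0.65 for miR-362-3p.

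The miRNAs most like miR-152-3p were others. miR-214-3p, from the fibroblast transcript that also gives miR-199a, came first at r = 0.91. It had 7.54, 5.52, 6.77, 8.11 and 5.28 k in right eyes, against 6.97, 6.60, 5.90, 6.60 and 6.30 k in left eyes, with right eyes 64 and 68 low as for miR-152-3p. Next came miR-1933-3p (r = 0.90), the cartilage miRNA miR-140-5p (0.87), miR-7033-5p (0.80) and miR-3103-3p (0.79). Of these, miR-140-5p averaged 1177 ± 128 units (SD, n = 10) and the other 3 averaged 62.7, 14.6 and 31.8 units. Without number 68 the r was 0.87 for miR-214-3p and 0.91 for miR-140-5p.

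Marker miRNAs of photoreceptors moved against miR-152-3p, a relation chosen after its values were seen. The summed signal of miR-182-5p, miR-183-5p and miR-96-5p was 192, 347, 244, 167 and 1285 k in the right eyes of numbers 61, 64, 65, 66 and 68, against 272, 277, 449, 273 and 243 k in the left eyes. The 3 libraries with the highest sums, right eyes 68 and 64 and left eye 65, were those with the lowest miR-152-3p, at 4.70, 5.09 and 5.09 k. The r between miR-152-3p and this sum was -0.88 over the 10 libraries and -0.93 without number 68. The sum of the neuron miRNAs miR-124-3p and miR-9-5p had r = -0.66 with miR-152-3p, but -0.27 without number 68. Of this pair, miR-124-3p alone, picked after its values were seen, had r = -0.93 with and without number 68. It averaged 5023 units where the sum was 16.0 to 45.2 k, and no r is given for miR-9-5p alone.

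For miR-148a-3p the r with the photoreceptor sum was 0.34, and -0.30 without number 68, so its direction rested on that number. miR-148b-3p gave 0.25 and -0.32. With the fibroblast and smooth muscle sum (miR-143-3p, miR-145a-5p, miR-199a-3p and miR-214-3p), r was 0.50 for miR-148a-3p, 0.59 for miR-148b-3p and 0.45 for miR-152-3p. This sum contains miR-214-3p, but only as a small part, with a mean of 6560 units where the sum was 836 to 1060 k. With 1 number left out the lowest r values were 0.35, 0.48 and 0.33. The erythroid sum had r = 0.67 with miR-152-3p, and -0.52 and -0.56 with miR-148a-3p and miR-148b-3p. Without number 68 these were 0.47, -0.21 and -0.38. With miR-148a-3p the neuron sum had r = 0.63 and the endothelial sum 0.57, against 0.43 for neuron without number 68 and 0.40 for endothelium without number 64. For miR-148b-3p the same sums gave 0.52 and 0.56, against 0.24 without number 68 and 0.38 without number 64. The endothelial sum had r = 0.22 with miR-152-3p, and between -0.07 and 0.44 with 1 number left out. The surface epithelium, cornea and lens sum had r = -0.62 with miR-148a-3p and -0.55 with miR-148b-3p, but -0.38 and -0.30 without number 64. With miR-152-3p it had r = -0.13, and between -0.35 and 0.15 with 1 number left out. The pigment epithelium sum had r = -0.43 with miR-152-3p, and between -0.70 and -0.23 with 1 number left out. With miR-148a-3p and miR-148b-3p it had r = -0.18 and -0.15, but 0.08 and 0.11 without number 68. In the order miR-148a-3p, miR-148b-3p and miR-152-3p, the leukocyte sum gave 0.01, -0.02 and 0.39. The last ran from 0.06 to 0.62 with 1 number left out. The striated muscle sum gave 0.20, 0.15 and 0.18, against -0.33, -0.40 and 0.17 without number 68. The part of cell type makeup in the levels of the members was not tested.

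**Figure D4:**
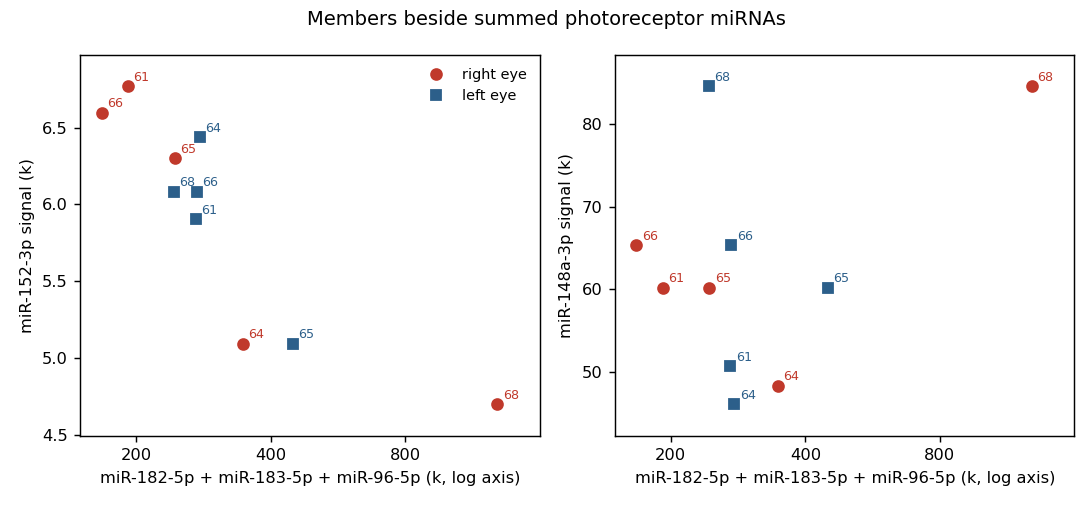
Signal of miR-152-3p (left panel) and miR-148a-3p (right panel) in k on the vertical axes, against the summed signal of 3 photoreceptor miRNAs in k on a log axis. Circles are right eyes, squares left eyes, and each point bears its number. miR-152-3p is at 5.09 k or less in the 3 libraries with the highest sums, while miR-148a-3p is at 84.5 k in right eye 68 with 1285 k and in left eye 68 with 243 k.

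Other miRNAs known to act on the same messengers were counted by list. Of 7 miRNAs reported to target DNA methyltransferases, 0 passed in limma in either direction, 6 had a higher value in right eyes, and the median log2 fold change was 0.10. Over all 588 miRNAs 321 had a higher and 267 a lower value in right eyes, with a median of 0.02. In this list of 7, miR-29a-3p, known for its collagen targets, had 19096 ± 4679 units in right eyes and 17755 ± 4685 units in left eyes (SD, n = 5 each). miR-101a-3p had 46664 ± 12657 units in right eyes and 41749 ± 8885 units in left eyes. The remaining log2 fold changes were 0.19 for miR-29b-3p, 0.12 for miR-29c-3p, 0.03 for miR-342-3p, 0.06 for miR-126a-3p and -0.08 for miR-185-5p.

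Of 5 miRNAs reported to target MITF, 4 were tested and 0 passed in either direction. Their log2 fold changes were 0.15 for miR-340-5p, 0.12 for miR-182-5p, 0.23 for miR-96-5p and -0.21 for miR-218-5p, with a median of 0.14. The fifth, miR-137-3p, had a mean of 5.15 units and was below the minimum for testing. Among these, miR-182-5p and miR-96-5p are the photoreceptor miRNAs that were far highest in right eye 68.

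Of 7 miRNAs of the cholesterol and LDL receptor list, 0 passed in either direction. A lower value in right eyes was found for 6 of them, beside 267 of all 588 miRNAs, and the median log2 fold change was -0.08. The largest were -0.15 for miR-128-3p, -0.13 for miR-27b-3p and -0.12 for miR-33-5p, which is encoded in an intron of the sterol regulator Srebf2. miR-27b-3p had the same value, 628392 units, in all left eyes, and 583432 ± 100533 units in right eyes (SD, n = 5 each). Its difference thus rested only on right eyes that departed from that value. Those of miR-27a-3p, miR-106b-5p and miR-144-3p were -0.01, -0.01 and 0.04, and miR-185-5p is the one on the methyltransferase list. No member of the 3 lists had an unadjusted p under 0.05 in limma.

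Marker miRNAs of the labelled tissue were present in every library. The pigment epithelium pair miR-204-5p and miR-211-5p summed to 1959 to 1989 k in right eyes and 1969 to 1989 k in left eyes. A miRNA that keeps its rank keeps its value on this scale, so the narrow range need not mean even amounts of pigment epithelium. The endothelial sum was 198 to 342 k in right eyes and 201 to 267 k in left eyes. The fibroblast and smooth muscle sum was 836 to 1008 k in right eyes and 842 to 1060 k in left eyes. Listed markers of photoreceptors, neurons, surface epithelium, striated muscle, red cells and leukocytes were also above 0 in all 10 libraries. The photoreceptor sum was 167 to 1285 k in right eyes, with right eye 68 apart, and 243 to 449 k in left eyes. The surface epithelium, cornea and lens sum was 25.2 to 205 k in right eyes and 63.7 to 244 k in left eyes.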

How the data were processed

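Per the labels' protocols, libraries came from the TruSeq small RNA kit. The extraction text mentions retinae, but the tissue label, RPE/choroid/sclera, was followed. The authors used Bowtie and Partek with GRCm38 (mm10), per the submitters' processing notes, without versions. The deposited values are a normalised signal whose sums lie between 11878152 and 11879036 in all 10 libraries, so the depth is unknown and no count model or counting interval was used. No source used here gives the normalisation method.

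Values were analysed as log2(signal + 1) for the 588 miRNAs with a mean of at least 10. Fold changes on this scale understate those of low miRNAs. Right and left eyes were compared with limma 3.58.1 in R 4.3.3 (mean-variance trend, two-sided, Benjamini-Hochberg adjustment, threshold 0.05). The code was run on simulated data with independent noise around fitted means. That simulation lacked the rank steps and equal pairs of these data, so it cannot show how limma handles them. Single values were compared by exact two-sided sign-flip permutation of the 5 pairs, in Python 3.11.15. Nothing says how the animals were raised or batched, so sign-flip p-values measure only the spread between these 5 pairs. The limma p-values also draw on the spread of other miRNAs of like level in the same pairs.

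The number served as block because the protocol compares both eyes of an animal, and the pairing is read from the titles. With side means taken off, right and left eye of one number correlated at 0.12, 0.45, 0.01, -0.13 and 0.28 across miRNAs for numbers 61, 64, 65, 66 and 68, and 2 of 5 left eyes correlated best with the right eye that bears their number, so the values do not establish it.

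The members, lists and tests were chosen with earlier results of these data known. Named miRNAs were the members, their 5p arms, the 5 miRNAs most like each member, the 2 next above and below by mean, other miRNAs with the seed, and the listed miRNAs. Sequences were matched by name to RefSeq, for 3 of 3 members and 3 of 3 5p arms. The alternatives were other pseudocounts (0.5 and 10), filters (none, or a mean of at least 100), scaling, no trend, no block, and each number left out.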

Additional observations from a re-analysis of the deposited data

Results flagged for a closer look

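Of 32 checks on single members, arms, shares and ratios, each within the 5 eyes of a side, 3 had 1 eye far from the other 4. Chance gives about 1 in 20 for independent values, and these checks share their miRNAs. Right eye 68 stood apart in the share of miR-152-3p in the family sum, 3.42% where the other right eyes had 5.63% to 6.28%. The same eye stood apart in the log2 ratio of miR-148a-3p to miR-152-3p, 4.17 where the other right eyes had 3.15 to 3.31. Left eye 68 stood apart in miR-148b-5p, at 8.22 on the log2 scale where the other left eyes had 8.03 to 8.07.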

How the results depend on the processing

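No alternative brought a member, 5p arm, share, ratio or sum past the adjusted threshold, in 157 recomputations of 16 results. The lowest adjusted p was 0.1875, by exact sign-flip permutation for shares without number 65. For the sum, shares and ratios the sign-flip recomputations could not pass, so their lack of calls was fixed in advance. The smallest p that test allows is 0.0625 with 5 pairs and larger with fewer. Without the replicate block the fold changes stay as they were (0.06 for miR-148a-3p, 0.002 for miR-148b-3p, -0.02 for miR-152-3p) and no call changed. Their precision did change. The limma SE on the log2 scale rose from 0.063 to 0.18 for miR-148a-3p and from 0.063 to 0.11 for miR-148b-3p. For miR-152-3p it was 0.123 with the block and 0.125 without. The narrow intervals of miR-148a-3p and miR-148b-3p thus rest on the pairing by number, which the values do not establish. With each number left out in turn, direction turned in several near-zero differences. The ranges were -0.76 to 3.73 k for the family sum, -0.46 to 0.15 percentage points for the miR-152-3p share, -0.00056 to 0.18 for the log2 ratio of miR-148a-3p to miR-152-3p and -0.051 to 0.084 for that of miR-148b-3p to miR-152-3p. The log2 fold changes ran from -0.033 to 0.028 for miR-148b-3p, -0.099 to 0.071 for miR-152-3p and -0.013 to 0.11 for miR-152-5p. The r of miR-152-3p ran from -0.39 to 0.24 with miR-148a-3p and from -0.23 to 0.34 with miR-148b-3p.

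The names of the miRNAs most alike also depended on the choices. Of the 5 named for each member, 1 to 4 stayed for miR-148a-3p, 3 to 4 for miR-148b-3p and 1 to 3 for miR-152-3p with a number left out, the lowest 1 for miR-148a-3p and for miR-152-3p without number 68. With Spearman rho 2 stayed for miR-148a-3p and 3 for miR-148b-3p. With the mean of both eyes in place of each eye, a choice made after seeing the data, 2, 1 and 1 stayed for miR-148a-3p, miR-148b-3p and miR-152-3p. The cause was not tested. Rank steps and the unknown depth limit what the signal can show.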

Other observations

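The 7 letters of the seed also open the miR-130 and miR-301 miRNAs, at bases 1 to 7 instead of 2 to 8, a relation noticed in the sequences. Of 7 RefSeq miRNAs of this kind 4 are in the deposited table. miR-130a-3p averaged 33705 ± 3495 units in right eyes and 33402 ± 3409 units in left eyes, and miR-301a-3p 4827 ± 835 units in right eyes and 4406 ± 407 units in left eyes. miR-130b-3p averaged 1146 ± 430 units in right eyes and 1282 ± 210.1 units in left eyes (all SD, n = 5 each), and miR-6341 was below 4 units in every library. Their sum was 34804 to 43904 units over the 10 libraries.

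The 5p arms also share letters. miR-148a-5p and miR-148b-5p both have AAGUUCU at bases 2 to 8, where miR-152-5p has AGGUUCU. The miRNA least like miR-148a-3p and miR-148b-3p was miR-106b-3p, with r = -0.95 and -0.94 over the 10 libraries and -0.93 and -0.88 without number 68.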
